A study of Mus musculus with 15 samples.

Results

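Levels of 10 plasma membrane amino acid transporter genes were examined in GL261, a mouse glioma cell line: Slc7a5, Slc3a2, Slc7a1, Slc7a3, Slc1a4, Slc1a5, Slc38a1, Slc38a2, Slc43a1 and Slc6a9. They were chosen as a list by symbol, with earlier results of these data known. The symbols were matched to the gene identifiers of the deposited count table, which holds 34259 genes. All 10 were found there, and all 10 passed the filter on low counts that left 17497 genes for testing.

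Cells take up amino acids through transporters of several families. The product of Slc7a5 (LAT1) and the glycoprotein made from Slc3a2 (4F2hc, or CD98 heavy chain) form a heterodimer that exchanges glutamine inside the cell for leucine and other large neutral amino acids outside it. The glutamine comes in through ASCT2 (Slc1a5), a sodium-dependent exchanger, and through the sodium-coupled carriers SNAT1 (Slc38a1) and SNAT2 (Slc38a2). Leucine and arginine inside the cell activate the kinase complex mTORC1, and a shortage of amino acids raises translation of the transcription factor ATF4, which drives genes of amino acid synthesis and uptake. Gliomas are known for high LAT1.

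RNA was sequenced from 15 libraries of wild-type GL261 cells in 5 groups of 3, all taken on day 6 and all with the same batch label. The non-SP group, named for cells outside the side population, had standard culture without treatment. Cells labelled Hoechst-CD133+ made up the other 4 groups and received a cytokine cocktail whose contents the labels do not give. Of these, the PBS group had phosphate-buffered saline, while freeze-dried chiral hydrogels took up the cells of D-gel@GSNP, of D-gel@NP and of L-gel@GSNP during 20 min on ice. No ice step is named for PBS or non-SP, so comparisons of a hydrogel group with either include it. In comparisons of the 4 groups with non-SP the cell population and the cytokines changed together. For the hydrogel groups the gel and its load changed with them. GSNP and NP are code names that the labels do not explain. All groups had fresh medium on days 2 and 4. The labels do not say whether replicates were separate cultures, so p-values measure the spread between these libraries, which may be technical.

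Total counts ran from 16.6 to 98.1 M per library, a 5.9-fold range. By their whole profile the D-gel@GSNP libraries lay next to the non-SP libraries: the distance between a library of each was 31.6 to 35.3 (Euclidean, log2 CPM of the tested genes), against 29.8 to 31.0 within non-SP and 74.3 to 82.0 between D-gel@GSNP and PBS. Mislabelled libraries, or cells in common, and a treatment effect cannot be told apart in these files, so every result on D-gel@GSNP below rests on its label. Prom1, which encodes the CD133 of the sort label, had a mean of 0.0161 to 0.157 CPM in the 5 groups, the astrocyte marker Gfap 0.105 to 0.280 CPM, and the glioma-associated Cd44 523 to 1156 CPM. Of 10 macrophage and microglia markers measured, 2 or 3 per group exceeded 1 CPM, and their sum was 9.30 to 9.98 CPM in non-SP, 10.5 to 11.8 in D-gel@GSNP, 32.7 to 40.0 in D-gel@NP, 37.2 to 44.4 in L-gel@GSNP and 64.7 to 72.8 in PBS. Most of that sum was Csf1r and Cd68, while Tyrobp was at 0 in non-SP, PBS and L-gel@GSNP. Mitochondrially encoded genes took 2.82% to 2.92% of counts in non-SP, 2.82% to 3.37% of them in D-gel@GSNP, 4.28% to 4.63% in L-gel@GSNP, 4.47% to 4.84% in D-gel@NP and 5.69% to 6.35% in PBS. Both measures were highest in PBS, where Slc7a5 was lowest, and their part in the results below was not tested. In bulk RNA, fewer cells of a type and less RNA per cell cannot be told apart.

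Levels below are in CPM, in which each library's counts are brought to the same total after adjustment by its trimmed-mean (TMM) factor. A value after ± is an SD over 3 libraries. Calls are from edgeR's quasi-likelihood test at a Benjamini-Hochberg adjusted p under 0.05 over all 17497 genes, and log2 differences carry their standard error (SE). The members did not move as a block. In PBS against non-SP, 6 rose, 3 fell and 1 was not called, where 53.7% of all genes tested were called, 27.6% higher and 26.1% lower. In D-gel@GSNP against PBS, 3 rose and 6 fell (55.0% of all genes called, 27.4% higher and 27.5% lower). In L-gel@GSNP against PBS 4 rose and 4 fell (45.6% of all genes called, 21.5% higher and 24.1% lower), and in D-gel@NP against PBS 5 rose and 1 fell (30.4% of all genes called, 14.2% higher and 16.3% lower). All 4 comparisons share the PBS libraries, which enter PBS minus non-SP with the opposite sign to the other 3. The median log2 difference over the members was 0.40 for PBS minus non-SP, -0.26 for D-gel@GSNP minus PBS, -0.22 for L-gel@GSNP minus PBS and 0.23 for D-gel@NP minus PBS, where that over all genes was 0.02, -0.02, 0.00 and 0.00. In each of the 4 comparisons the members were called in a larger share than all genes tested. They were chosen with earlier results of these data known, so this larger share is a description only, and it was not tested further.

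**Figure D1:**
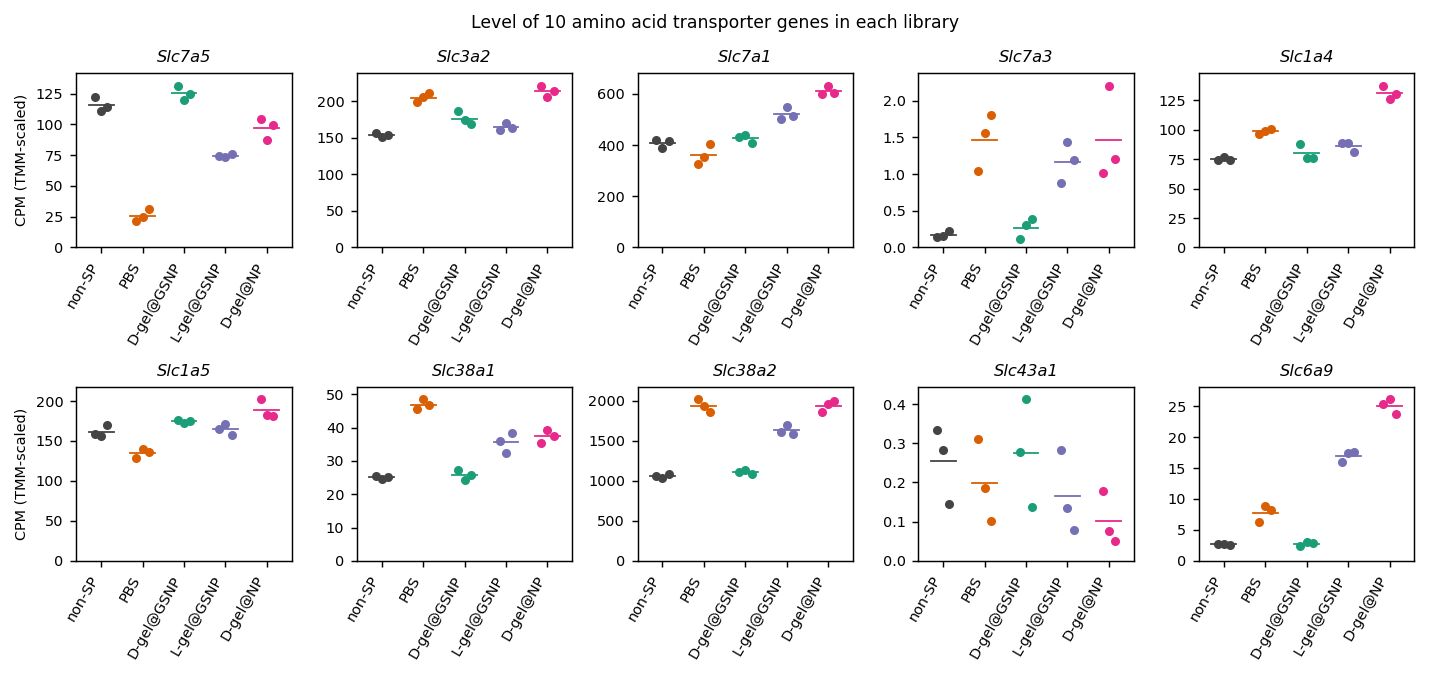
Level of each member in every library, in CPM scaled with TMM factors on a linear axis that starts at 0, by group. Points are libraries 1 to 3 of a group from left to right and lines are group means. Slc7a5 is lowest in the 3 PBS libraries, and Slc6a9 is highest in the 3 D-gel@NP libraries.

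The LAT1 gene Slc7a5 had by far its lowest level in PBS. It was at 122, 111 and 114 CPM in the non-SP libraries and at 21.3, 24.8 and 31.0 CPM in the PBS libraries. The D-gel@GSNP libraries held 131, 120 and 125 CPM, the L-gel@GSNP libraries 74.5, 73.5 and 75.9 CPM, and the D-gel@NP libraries 104, 87.2 and 99.7 CPM. Every PBS library was below every library of the other 4 groups, and only the non-SP and D-gel@GSNP libraries overlapped. Slc7a5 fell 4.51-fold from non-SP to PBS (log2 difference -2.17, SE 0.09, edgeR adjusted p = 1.47e-14). Against PBS it was 4.89-fold higher in D-gel@GSNP, 3.76-fold higher in D-gel@NP (log2 difference 1.91, edgeR adjusted p = 1.41e-12) and 2.91-fold higher in L-gel@GSNP (log2 difference 1.54, edgeR adjusted p = 1.33e-11).

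The hydrogel groups also differed among themselves in Slc7a5. In D-gel@GSNP it was 1.68-fold higher than in L-gel@GSNP, the hydrogel with the other chirality prefix and the same load name (log2 difference 0.75, SE 0.08, edgeR adjusted p = 7.34e-08). It was 1.3-fold higher than in D-gel@NP, the hydrogel with the same prefix and the other load name (log2 difference 0.38, edgeR adjusted p = 0.000592), and 1.29-fold lower in L-gel@GSNP than in D-gel@NP (edgeR adjusted p = 0.00351). Against non-SP it fell 1.55-fold in L-gel@GSNP (edgeR adjusted p = 9.63e-07). The order of group means was PBS, L-gel@GSNP, D-gel@NP, non-SP, D-gel@GSNP. Of the neighbours in that order, non-SP and D-gel@GSNP did not differ beyond the spread (log2 difference 0.11, 95% interval -0.06 to 0.29, edgeR adjusted p = 0.738). The step from D-gel@NP to non-SP, 1.2-fold, was called (edgeR adjusted p = 0.0119) but lost with upper-quartile factors and without non-SP library 1 or D-gel@NP library 2, where adjusted p reached 0.102.

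Slc3a2, the heavy chain that brings LAT1 and other light chains to the cell surface, did not follow Slc7a5. Its levels were 157, 152 and 154 CPM in non-SP, 199, 206 and 211 CPM in PBS, 187, 174 and 169 CPM in D-gel@GSNP, 161, 170 and 164 CPM in L-gel@GSNP, and 221, 206 and 215 CPM in D-gel@NP. PBS and D-gel@NP were the high groups, and their libraries overlapped. From non-SP to PBS it rose 1.33-fold (log2 difference 0.41, SE 0.05, edgeR adjusted p = 1.84e-07), the direction opposite to that of Slc7a5. Against PBS it fell 1.16-fold in D-gel@GSNP and 1.25-fold in L-gel@GSNP, and in D-gel@NP the log2 difference was 0.06 with a 95% interval of -0.04 to 0.16.

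Among the hydrogels, Slc3a2 was 1.3-fold lower in L-gel@GSNP than in D-gel@NP (edgeR adjusted p = 8.2e-06) and 1.21-fold lower in D-gel@GSNP than in D-gel@NP (edgeR adjusted p = 3.16e-05). D-gel@GSNP and L-gel@GSNP differed by 0.10 on the log2 scale (95% interval 0.00 to 0.20, edgeR adjusted p = 0.0817). That difference turned to -0.05 with upper-quartile factors, not called, and was called without D-gel@GSNP library 3 (edgeR adjusted p = 0.0357). The neighbours in order of level that did not differ beyond the spread were non-SP with L-gel@GSNP, D-gel@GSNP with L-gel@GSNP, and PBS with D-gel@NP. Of these, L-gel@GSNP minus non-SP was 0.10 on the log2 scale (95% interval 0.00 to 0.19, edgeR adjusted p = 0.0943), with no overlap between the libraries, and it was called with upper-quartile factors (0.21, edgeR adjusted p = 0.000457) and by limma on log2(FPKM + 1) (adjusted p = 0.0114).

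The ratio of both genes within a library does not depend on how libraries are scaled. It was taken from the deposited FPKM, which divides by gene length, so that levels of different genes can be set side by side. Slc7a5 per Slc3a2 was 0.119 ± 0.0193 in PBS, 0.430 ± 0.0237 in D-gel@NP, 0.431 ± 0.0157 in L-gel@GSNP, 0.677 ± 0.0253 in D-gel@GSNP and 0.714 ± 0.0236 in non-SP (FPKM ratio, SD, n = 3). The 3 PBS ratios, 0.102, 0.114 and 0.140, lay below all others, and the ratios of L-gel@GSNP (0.413 to 0.440) and D-gel@NP (0.403 to 0.446) overlapped although both genes differed in CPM between these groups. Comparing 3 libraries with 3, an exact two-sided permutation test cannot give a p below 0.10, so these ratios are given without a test.

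**Figure D2:**
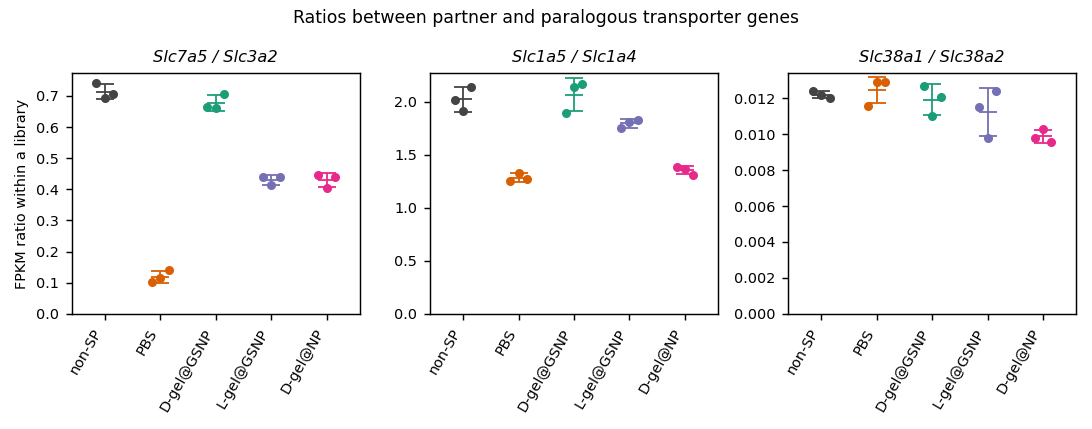
Ratio of the FPKM of paired genes within each library: Slc7a5 to its partner Slc3a2, and the paralogs Slc1a5 to Slc1a4 and Slc38a1 to Slc38a2. Points are libraries, and bars are the mean ± SD of 3. Slc7a5 per Slc3a2 is 0.102 to 0.140 in PBS and at least 0.403 in every other library, Slc1a5 per Slc1a4 is lowest in PBS and D-gel@NP, and Slc38a1 per Slc38a2 is 0.00959 to 0.0129 throughout.

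The cationic amino acid carriers take up arginine and lysine. Slc7a1 (CAT1) had 418, 387 and 416 CPM in non-SP, 324, 355 and 403 CPM in PBS, 432, 439 and 407 CPM in D-gel@GSNP, 500, 549 and 515 CPM in L-gel@GSNP, and 600, 630 and 602 CPM in D-gel@NP. The L-gel@GSNP and D-gel@NP libraries lay above all others, D-gel@NP highest, and PBS overlapped with non-SP. Against PBS, Slc7a1 rose 1.69-fold in D-gel@NP (log2 difference 0.76, SE 0.06, edgeR adjusted p = 6.29e-09), 1.45-fold in L-gel@GSNP and 1.18-fold in D-gel@GSNP. It was 1.22-fold lower in D-gel@GSNP than in L-gel@GSNP (edgeR adjusted p = 0.000252) and 1.17-fold lower in L-gel@GSNP than in D-gel@NP (edgeR adjusted p = 0.0105). The fall of 0.17 on the log2 scale from non-SP to PBS (edgeR adjusted p = 0.0202) was lost in 6 of 14 alternatives, among them those without non-SP library 1 or 3 or PBS library 1 or 2, with adjusted p up to 0.16. Non-SP and D-gel@GSNP did not differ beyond the spread (log2 difference 0.07, 95% interval -0.06 to 0.19).

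Slc7a3 (CAT3), a related carrier best known from brain, was measured at the edge of detection, from 5 to 120 counts per library. Its levels were 0.144, 0.154 and 0.218 CPM in non-SP, 0.116, 0.300 and 0.391 CPM in D-gel@GSNP, 1.04, 1.56 and 1.80 CPM in PBS, 0.877, 1.44 and 1.19 CPM in L-gel@GSNP, and 1.01, 2.20 and 1.20 CPM in D-gel@NP. Non-SP and D-gel@GSNP were low, the other 3 groups were high, and the low and high groups did not overlap. It rose 8.4-fold from non-SP to PBS (log2 difference 3.07, SE 0.43, edgeR adjusted p = 2.37e-06) and fell 5.37-fold from PBS to D-gel@GSNP (edgeR adjusted p = 1.57e-05). Differences among PBS, L-gel@GSNP and D-gel@NP were within the spread, with 95% intervals of -1.01 to 0.38 for L-gel@GSNP minus PBS and -0.67 to 0.75 for D-gel@NP minus PBS. Per length, Slc7a3 stayed at 0.000821 to 0.0136 of the FPKM of Slc7a1.

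The neutral amino acid exchangers ASCT1 (Slc1a4), which carries serine, alanine and cysteine, and ASCT2 (Slc1a5), which also carries glutamine, moved apart between non-SP and PBS. Slc1a4 was at 74.1, 76.9 and 74.7 CPM in non-SP, 96.6, 98.9 and 101 CPM in PBS, 87.7, 76.2 and 75.7 CPM in D-gel@GSNP, 88.9, 89.1 and 81.3 CPM in L-gel@GSNP, and 137, 126 and 130 CPM in D-gel@NP. Slc1a5 was at 159, 156 and 170 CPM in non-SP, 129, 140 and 136 CPM in PBS, 176, 173 and 175 CPM in D-gel@GSNP, 165, 171 and 158 CPM in L-gel@GSNP, and 202, 182 and 181 CPM in D-gel@NP. PBS was the lowest group for Slc1a5 and the second highest for Slc1a4, and D-gel@NP had the highest mean for both. For Slc1a5 that top place was not called against D-gel@GSNP (D-gel@GSNP minus D-gel@NP -0.11 on the log2 scale, 95% interval -0.22 to 0.00, edgeR adjusted p = 0.086). It was called there in 4 of 13 alternatives, with upper-quartile factors, on log2(FPKM + 1) and without D-gel@NP library 2 or 3, and adjusted p over the alternatives ran from 0.000792 to 0.281.

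From non-SP to PBS, Slc1a4 rose 1.31-fold (log2 difference 0.39, SE 0.06, edgeR adjusted p = 5.73e-06) and Slc1a5 fell 1.2-fold (log2 difference -0.26, SE 0.05, edgeR adjusted p = 0.000221). Against PBS, Slc1a5 rose 1.3-fold in D-gel@GSNP, 1.22-fold in L-gel@GSNP and 1.4-fold in D-gel@NP (edgeR adjusted p = 2.51e-06, 0.000108 and 5.65e-07). Slc1a4 against PBS fell 1.24-fold in D-gel@GSNP and rose 1.32-fold in D-gel@NP (edgeR adjusted p = 0.000102 and 1.9e-05). Its fall of 0.20 on the log2 scale in L-gel@GSNP (edgeR adjusted p = 0.00853) was lost with upper-quartile factors and without L-gel@GSNP library 3, with adjusted p up to 0.0733.

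Slc1a4 also separated the hydrogels: it was 1.64-fold lower in D-gel@GSNP and 1.51-fold lower in L-gel@GSNP than in D-gel@NP (edgeR adjusted p = 5.95e-10 and 3.74e-07). For Slc1a5 the difference of L-gel@GSNP from D-gel@NP, -0.19 on the log2 scale (edgeR adjusted p = 0.0115), was lost in the fit of these 6 libraries alone, without L-gel@GSNP library 3 and without D-gel@NP library 1. Between D-gel@GSNP and L-gel@GSNP neither gene was called, with 95% intervals of -0.23 to 0.01 for Slc1a4 and -0.02 to 0.20 for Slc1a5. The Slc1a5 difference turned to -0.06 with upper-quartile factors, and Slc1a4 was called there, on log2(FPKM + 1) and without D-gel@GSNP library 1 or L-gel@GSNP library 3. Slc1a5 per Slc1a4 was 1.28 ± 0.0405 in PBS, 1.35 ± 0.0363 in D-gel@NP, 1.79 ± 0.0423 in L-gel@GSNP, 2.02 ± 0.118 in non-SP and 2.07 ± 0.154 in D-gel@GSNP (FPKM ratio, SD, n = 3). The ratios of PBS (1.25 to 1.33) and D-gel@NP (1.31 to 1.38) lay below those of every library of the other groups.

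SNAT2 (Slc38a2), the sodium-coupled carrier known to be induced when amino acids run short, was the most abundant member per length in every library. It had 1056, 1029 and 1079 CPM in non-SP, 2017, 1934 and 1859 CPM in PBS, 1104, 1139 and 1090 CPM in D-gel@GSNP, 1607, 1692 and 1589 CPM in L-gel@GSNP, and 1862, 1956 and 2003 CPM in D-gel@NP. Non-SP and D-gel@GSNP formed the low end without overlapping each other, L-gel@GSNP lay between, and PBS and D-gel@NP overlapped at the top. Slc38a2 rose 1.84-fold from non-SP to PBS (log2 difference 0.88, SE 0.04, edgeR adjusted p = 2.79e-13). Against PBS it fell 1.74-fold in D-gel@GSNP (edgeR adjusted p = 1.06e-12) and 1.19-fold in L-gel@GSNP (edgeR adjusted p = 6.68e-05), and in D-gel@NP the log2 difference was 0.00 with a 95% interval of -0.09 to 0.09. L-gel@GSNP was 1.47-fold above D-gel@GSNP (edgeR adjusted p = 2.5e-10) and 1.19-fold below D-gel@NP (edgeR adjusted p = 0.000259).

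SNAT1 (Slc38a1), its paralog, had 25.6, 24.5 and 25.3 CPM in non-SP, 45.5, 48.5 and 46.7 CPM in PBS, 27.3, 24.4 and 25.8 CPM in D-gel@GSNP, 36.1, 32.4 and 38.3 CPM in L-gel@GSNP, and 35.5, 39.2 and 37.5 CPM in D-gel@NP. PBS was the highest group, non-SP and D-gel@GSNP overlapped at the bottom, and L-gel@GSNP and D-gel@NP overlapped between. It rose 1.86-fold from non-SP to PBS (log2 difference 0.90, SE 0.07, edgeR adjusted p = 3.94e-10), and against PBS it fell 1.82-fold in D-gel@GSNP, 1.32-fold in L-gel@GSNP and 1.25-fold in D-gel@NP (edgeR adjusted p = 5.95e-10, 6.14e-05 and 0.00123). L-gel@GSNP and D-gel@NP did not differ beyond the spread (log2 difference -0.07, 95% interval -0.22 to 0.07). Slc38a1 per Slc38a2 was 0.0122 ± 0.000201 in non-SP, 0.0124 ± 0.000761 in PBS and 0.00988 ± 0.000355 in D-gel@NP (FPKM ratio, SD, n = 3).

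Promoter windows, from 250 bases before to 50 after a start site in RefSeq on build GRCm38.p6, were at hand for 6 members in 9 windows, for Slc3a2, Slc7a1, Slc1a4, Slc38a2, Slc43a1 and Slc6a9. The files use another build, GRCm39. The windows were searched on both strands for the core of the amino acid response element, TGATGNAA (TTNCATCA on the other strand), which ATF4 dimers bind, and for the E-box CACGTG, which Myc and related factors bind. Of 32851 promoter windows of that length, 3.97% hold the first and 7.15% the second, and the motifs do not overlap in the members. Slc1a4 held the response core on the other strand from 4 bases before to 4 after the start, and Slc43a1 held an E-box from 64 to 59 bases before it. The stretches from 150 bases before to 20 after the start are shown for Slc1a4, the member with the response core, and for Slc38a2 and Slc3a2, which rose with it from non-SP to PBS and hold neither motif in their windows. They lie at chr11:20332694-20332863, chr15:96699709-96699878 and chr19:8713878-8714047, all on the minus strand, and are written 5′ to 3′ with the match in capitals.
Slc1a4: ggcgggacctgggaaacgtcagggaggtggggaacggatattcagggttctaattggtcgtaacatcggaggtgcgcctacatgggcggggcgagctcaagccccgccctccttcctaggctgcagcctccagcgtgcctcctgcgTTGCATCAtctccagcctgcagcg
Slc38a2: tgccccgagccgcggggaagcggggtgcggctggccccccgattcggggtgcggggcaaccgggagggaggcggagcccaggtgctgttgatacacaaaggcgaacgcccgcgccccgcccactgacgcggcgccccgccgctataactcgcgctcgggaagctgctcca
Slc3a2: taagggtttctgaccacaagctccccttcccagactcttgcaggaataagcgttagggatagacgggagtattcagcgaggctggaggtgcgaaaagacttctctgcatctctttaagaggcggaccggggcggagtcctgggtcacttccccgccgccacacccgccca
The capitals TTGCATCA of Slc1a4 span its start site. Of the 3 stretches that of Slc38a2 is the richest in G and C, at 74.1%, against 63.5% for Slc1a4 and 58.2% for Slc3a2. A match is a description of letters, and the absence of one says only that these letters are not in this window.

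Among the members above 1 CPM in every library, the glycine carrier GLYT1 (Slc6a9) had the widest range over groups as a fold. In the fit it was 9.48-fold higher in D-gel@NP than in non-SP (edgeR adjusted p = 3.1e-15). It had 2.71, 2.64 and 2.59 CPM in non-SP, 2.44, 2.96 and 2.90 CPM in D-gel@GSNP, 6.22, 8.88 and 8.20 CPM in PBS, 15.9, 17.4 and 17.6 CPM in L-gel@GSNP, and 25.3, 26.1 and 23.8 CPM in D-gel@NP. Only the non-SP and D-gel@GSNP libraries overlapped. Slc6a9 rose 2.94-fold from non-SP to PBS (log2 difference 1.55, SE 0.13, edgeR adjusted p = 7.72e-10). Against PBS it rose 2.18-fold in L-gel@GSNP and 3.23-fold in D-gel@NP, and fell 2.8-fold in D-gel@GSNP (edgeR adjusted p = 2.97e-08, 2.76e-10 and 9.87e-10). Among the hydrogels it was 6.11-fold lower in D-gel@GSNP than in L-gel@GSNP and 9.04-fold lower than in D-gel@NP (edgeR adjusted p = 3.69e-14 and 2.76e-15), and 1.48-fold lower in L-gel@GSNP than in D-gel@NP (edgeR adjusted p = 0.000605).

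LAT3 (Slc43a1), a leucine carrier that works without a heavy chain, had 2 to 22 counts per library and 0.05 to 0.412 CPM. Its mean was the lowest of the members in PBS, L-gel@GSNP and D-gel@NP. In non-SP and D-gel@GSNP the mean of Slc7a3 was lower, at 0.172 and 0.269 CPM against 0.254 and 0.276 CPM for Slc43a1. All groups overlapped in Slc43a1, and it was called in none of the 10 comparisons. For D-gel@GSNP minus D-gel@NP the log2 difference was 1.65 with a 95% interval of 0.09 to 3.21 (edgeR adjusted p = 0.0654), and it was called without D-gel@GSNP library 3 (edgeR adjusted p = 0.04) and without D-gel@NP library 1 (edgeR adjusted p = 0.044).

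**Figure D3:**
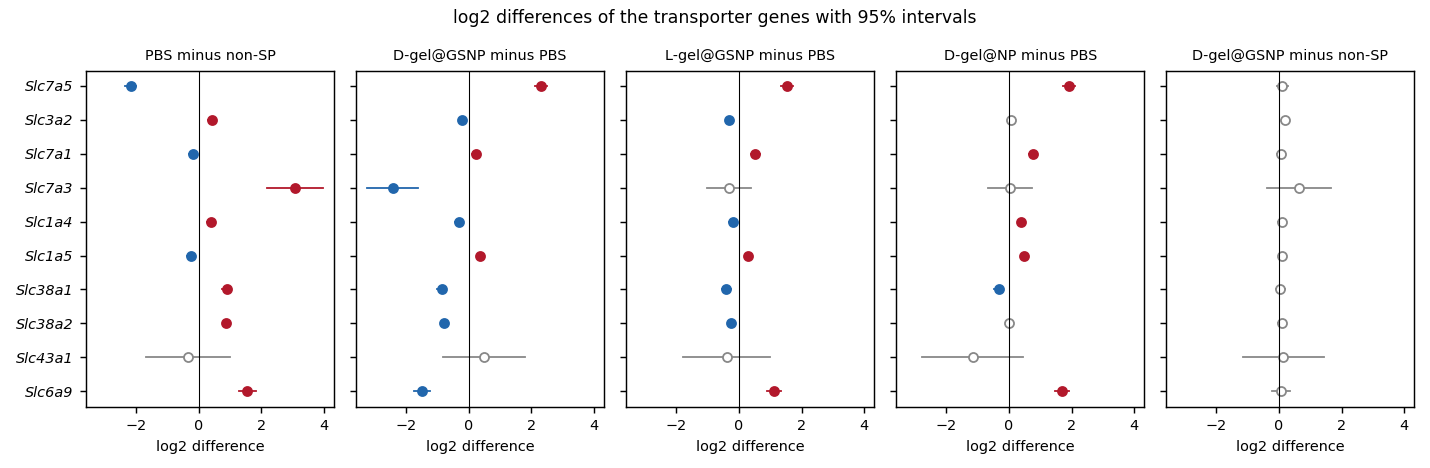
log2 difference of each member in 5 comparisons, with 95% intervals from the model's standard error. Filled red points rose and filled blue points fell at an adjusted p under 0.05, and open grey points were not called. Slc7a5 fell in PBS against non-SP and rose in all 3 hydrogel groups against PBS, and no member was called between D-gel@GSNP and non-SP.

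The summed FPKM of the 10 members was 280 to 293 in non-SP, 297 to 304 in D-gel@GSNP, 362 to 383 in L-gel@GSNP, 379 to 382 in PBS and 448 to 450 in D-gel@NP. Slc38a2 made up 40.9% to 41.5% of that sum in non-SP and 55.8% to 60.4% in PBS, while the share of Slc7a5 was 10.5% to 11.3% and 1.52% to 2.22%. Slc3a2 kept a share of 14.8% to 15.3% and 14.9% to 15.9% in the same groups, and Slc1a5 held 13.0% to 13.8% and 8.15% to 8.84%. The sum thus differed between non-SP and PBS in its make-up as well as in its size.

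The 3 hydrogel groups were compared in pairs. For D-gel@GSNP against L-gel@GSNP, 1 member was higher, 5 were lower and 4 were not called, where 61.8% of all genes were called, 30.5% higher and 31.3% lower, and the members' median log2 difference was -0.20 (all genes -0.04). For D-gel@GSNP against D-gel@NP, 1 was higher, 7 were lower and 2 were not called (58.4% of all genes, 28.8% higher and 29.6% lower), with a median of -0.53 (all genes -0.04). Slc7a5 was the 1 member higher in both, and these comparisons share the D-gel@GSNP libraries. L-gel@GSNP against D-gel@NP changes both parts of the name, and there 7 members were lower and 3 were not called, where 19.5% of all genes were called, 8.33% higher and 11.1% lower. Its median over members was -0.31 (all genes -0.01).

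Against non-SP, D-gel@NP had 8 members higher and 1 lower (56.1% of all genes called, 29.1% higher and 27.0% lower, median 0.58 over members and 0.04 over all genes), and L-gel@GSNP had 6 higher and 1 lower (59.8% called, 30.6% higher and 29.2% lower, median 0.28 and 0.04). The 1 lower member was Slc7a5 in both, and the non-SP libraries are shared. In D-gel@GSNP none of the 10 was called by edgeR against non-SP, where 0.417% of all genes were called, 0.103% higher and 0.314% lower. The lowest unadjusted edgeR p, under 0.05, were those of Slc3a2 (log2 difference 0.19, 95% interval 0.09 to 0.29) and Slc1a5 (0.11, 95% interval 0.00 to 0.22). How many of all genes passed that unadjusted threshold was not counted, so 0.417% is no measure for it. Slc3a2 was called by DESeq2 (adjusted p = 0.0221), in the fit of these 6 libraries alone and without D-gel@GSNP library 3, and by limma on log2(FPKM + 1) no member was called. The widest of the other intervals among members above 1 CPM was that of Slc6a9, from -0.22 to 0.35.

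The other genes of amino acid handling were read from 7 lists of related genes. The list whose median lay farthest from that of all genes in L-gel@GSNP and D-gel@NP against PBS was that of amino acid response genes, most of them known targets of ATF4. In L-gel@GSNP against PBS 16 of its 21 tested genes rose and 2 fell, where 45.6% of all genes were called. In D-gel@NP against PBS again 16 rose and 2 fell, where 30.4% of all genes were called. The medians were 0.96 and 1.10 on the log2 scale (all genes 0.00 in both). Trib3, a pseudokinase induced by this response, was at 8.33 ± 2.24 CPM in PBS, 63.2 ± 4.45 in L-gel@GSNP and 74.0 ± 15.8 in D-gel@NP, against 4.13 ± 0.523 in non-SP and 3.28 ± 0.653 in D-gel@GSNP. Asns, which makes asparagine from glutamine, rose from 78.5 ± 3.40 CPM in PBS to 211 ± 12.3 in L-gel@GSNP and 294 ± 19.6 in D-gel@NP (edgeR adjusted p = 3.39e-14 and 3.25e-16). Aldh18a1, an enzyme of proline synthesis, rose 4.72-fold and 5.42-fold in the same groups.

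In PBS against non-SP the response genes split, with 10 up and 9 down and a median of -0.02 (53.7% of all genes called, median 0.02). The stress-induced Nupr1 rose 8.14-fold, the phosphatase subunit gene Ppp1r15a 3.5-fold and the transcription factor gene Ddit3 2.73-fold, while Aldh18a1 fell from 45.2 ± 0.617 to 21.7 ± 2.56 CPM and Shmt2 from 237 ± 0.780 to 101 ± 11.5 CPM. In D-gel@GSNP 17 of the 21 were lower than in L-gel@GSNP and 4 higher, with a median of -1.10 (61.8% of all genes called, median -0.04). Against D-gel@NP 18 were lower and 2 higher, with a median of -1.27 (58.4% of all genes called, median -0.04). Against non-SP, 1 was called in D-gel@GSNP, Ppp1r15a at 1.44-fold higher (edgeR adjusted p = 0.0244), where 0.417% of all genes were called. From PBS to D-gel@GSNP 8 rose and 10 fell, with a median of -0.03 (55.0% of all genes called, median -0.02). Slc7a5 did not go with the balance of these genes in every comparison. It rose 3.76-fold from PBS to D-gel@NP, where 16 of them rose, and 4.89-fold from PBS to D-gel@GSNP, where 8 rose and 10 fell. It was also higher in D-gel@GSNP than in L-gel@GSNP and D-gel@NP, where most of them were lower. These comparisons share libraries, and whether the response bears on Slc7a5 was not tested.

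The counts of the lists that follow stand beside 53.7% of all genes called in PBS against non-SP and, against PBS, 30.4% in D-gel@NP, 55.0% in D-gel@GSNP and 45.6% in L-gel@GSNP, where the median of all genes was 0.02, 0.00, -0.02 and 0.00. Among 9 tested of 17 other plasma membrane transporter genes, 5 rose and 1 fell from non-SP to PBS (median 0.21). Against PBS, 1 rose and 4 fell in D-gel@GSNP, 1 rose and 5 fell in L-gel@GSNP, and 3 rose and 3 fell in D-gel@NP. The glutamate carrier gene Slc1a2 was at 1.52 ± 0.353 CPM in D-gel@GSNP, 1.69 ± 0.287 in non-SP, 24.5 ± 3.92 in PBS, 21.0 ± 1.75 in D-gel@NP and 9.53 ± 1.27 in L-gel@GSNP. Slc38a4, a carrier of the same family as Slc38a2, was instead highest in L-gel@GSNP, at 691 ± 119 CPM against 230 ± 44.1 in PBS, a 3-fold rise (edgeR adjusted p = 6.63e-11). Of 8 tested lysosomal carriers, 6 rose and 1 fell from non-SP to PBS (median 0.66), with the cystine exporter gene Ctns at 58.1 ± 1.28 and 163 ± 6.04 CPM. The fall was that of Slc7a14, at the edge of detection with 0.194 CPM in non-SP and 0.0328 in PBS, and its libraries overlapped. From PBS to D-gel@GSNP 6 of the carriers fell. In L-gel@GSNP against PBS 2 rose and 5 fell, and in D-gel@NP 1 rose and 3 fell.

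Of 35 genes of amino acid sensing by mTORC1, 15 rose and 10 fell from non-SP to PBS (median 0.05), 9 rose and 19 fell from PBS to L-gel@GSNP (median -0.28), 7 rose and 15 fell from PBS to D-gel@NP (median -0.16), and 12 rose and 16 fell from PBS to D-gel@GSNP (median -0.04). Those that rose included the leucine sensor gene Sesn2 and the mTOR inhibitor gene Deptor. Sesn2 was at 13.3 ± 0.507 CPM in non-SP, 24.1 ± 2.49 in PBS, 35.4 ± 1.43 in L-gel@GSNP and 54.1 ± 3.33 in D-gel@NP. Deptor was at 35.3 ± 2.17 CPM in PBS, 84.3 ± 3.31 in L-gel@GSNP and 77.3 ± 3.48 in D-gel@NP. In D-gel@GSNP both means were below those of PBS, at 15.3 ± 1.15 CPM for Sesn2 and 21.8 ± 1.83 for Deptor. Flcn, the folliculin gene of the Rag GTPase pathway, fell 3.08-fold from PBS to L-gel@GSNP and 1.41-fold to D-gel@NP. It was at 84.1 ± 2.86 CPM in PBS, 59.7 ± 4.11 in D-gel@NP and 27.2 ± 0.194 in L-gel@GSNP. In D-gel@GSNP, at 53.6 ± 1.10 CPM, and in non-SP, at 52.5 ± 1.02 CPM, it was also below PBS.

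Of 18 genes of glutamine and glutamate use, 2 rose and 9 fell from non-SP to PBS (median -0.23), 3 rose and 6 fell from PBS to L-gel@GSNP (median -0.08), and 5 rose and 6 fell to D-gel@NP (median -0.06). From PBS to D-gel@GSNP 9 rose and 2 fell (median 0.19). Cad, which starts pyrimidine synthesis from glutamine, was at 233 ± 7.02 CPM in non-SP and 246 ± 3.44 in D-gel@GSNP, and at 74.5 ± 8.78 in PBS, 43.6 ± 3.80 in L-gel@GSNP and 58.5 ± 4.71 in D-gel@NP. The list holds Asns too, which is also a response gene. Of 18 genes of branched-chain amino acid breakdown, 4 rose and 6 fell from non-SP to PBS (median -0.17), a share called near that of all genes. From PBS to L-gel@GSNP 5 rose and 6 fell, to D-gel@NP 3 rose and 4 fell, and to D-gel@GSNP 7 rose and 4 fell. Of 12 genes for transcription and trafficking factors of amino acid carriers, 4 rose and 3 fell from non-SP to PBS, 5 rose and 6 fell from PBS to L-gel@GSNP, 4 rose and 3 fell to D-gel@NP, and 3 rose and 3 fell to D-gel@GSNP. Txnip, an arrestin known for removing glucose carriers from the surface, rose 6.76-fold in L-gel@GSNP and 3.29-fold in D-gel@NP against PBS. Myc, a transcription factor known to drive LAT1 and ASCT2 genes, had its highest mean in D-gel@NP, at 216 ± 15.1 CPM. Next came L-gel@GSNP with 198 ± 13.5 CPM, non-SP with 195 ± 2.08, D-gel@GSNP with 192 ± 15.3 and PBS with 164 ± 9.30. PBS was also lowest for Slc7a5 and Slc1a5, but the other groups stood in a different order for Myc. Whether Myc bears on either gene was not tested.

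**Figure D4:**
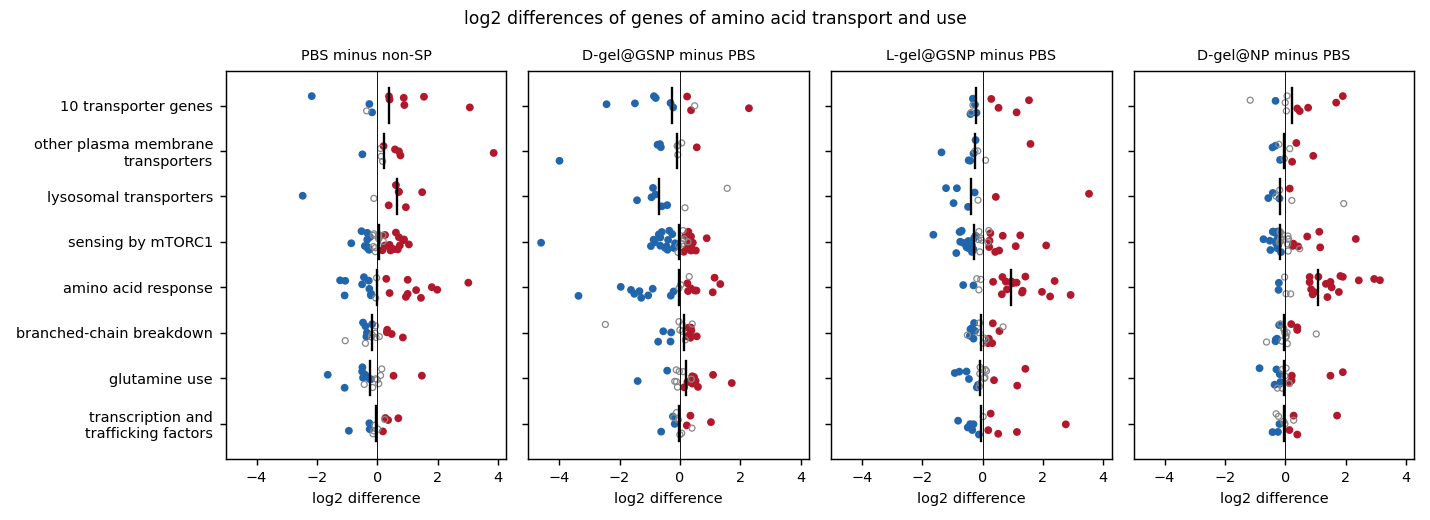
log2 difference of every tested gene of the members' list and of 7 related lists, in 4 comparisons. Each point is a gene, red where it rose, blue where it fell and open grey where it was not called, and black bars are list medians. The points are spread vertically only to keep them apart. The amino acid response list has medians of 0.96 and 1.10 in L-gel@GSNP and D-gel@NP minus PBS, and of -0.02 in PBS minus non-SP.

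Across the 15 libraries, the genes whose log2 CPM followed Slc7a5 most closely among 9731 genes with at least 5 CPM were Shmt2 (Pearson r 0.972), Mtbp (0.971), Nap1l1 (0.965), Agfg1 (0.963) and Ppp3cb (0.948). Those most opposite were S100a13 (-0.979), Tcirg1 (-0.964), S100a1 (-0.959), Coro1b (-0.959) and Lgals3 (-0.959). Group means of Shmt2, which makes glycine from serine in mitochondria, were lowest in PBS, at 101 CPM, and 177 CPM in L-gel@GSNP, 237 in non-SP, 255 in D-gel@GSNP and 258 in D-gel@NP. Those of the calcium-binding S100a13 were highest in PBS, at 45.0 CPM, and 14.6 to 21.7 CPM in the other groups. Among the members, Slc1a5 had the highest r with Slc7a5, 0.82, and Slc38a1 the lowest, -0.84. The partner Slc3a2 had -0.45. The libraries form 5 groups that set most of these values, so they are descriptions of the pattern over groups and carry no p.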

How the data were processed

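The authors deposited whole-number read counts per gene and FPKM values for 15 libraries. The submitters' processing notes name fastp 0.22.0, HISAT2 2.1.0, featureCounts, DESeq2 and build GRCm39. Gene annotation, strandedness and handling of multi-mapped reads are not given in the sources used here, so reads of overlapping genes cannot be told apart. For all 34259 genes the deposited FPKM equals the deposited count divided by gene length and library total within 0.0001. Symbols came from GENCODE on the earlier build GRCm38 by gene identifier (32434 matched, 1825 not). Among genes with 1 to 20 counts, 62.3% to 66.4% of counts were even, so counting errors may be understated.

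Analysis of the deposited counts used edgeR 4.0.16 in R 4.3.3: filterByExpr by group, TMM factors, and a quasi-likelihood fit (glmQLFit, glmQLFTest) of group means to all 15 libraries, with Benjamini-Hochberg adjustment over 17497 genes in each of 10 comparisons. The biological coefficient of variation was 8.06%. The test was tried on simulated data with known changes. Not all of those changes were recovered, so a gene not called may still differ. No pair of replicates agreed within counting noise (chi-square per gene 3.74 to 32.79). Alternatives used limma 3.58.1, DESeq2 1.42.0, RLE and upper-quartile factors, no filter, 6-library fits, a replicate block and leaving out libraries, among them the shallowest, D-gel@NP 1. limma used log2(FPKM + 1), so its fold changes understate those of low genes.

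The members, the 7 gene lists and the 6 marker lists were chosen with earlier results of these data known. The text names the members, up to 3 called genes per list and comparison with the largest difference (their higher group at 5 CPM or more), and the 5 genes most like and 5 most opposite to Slc7a5, leaving out Gm-number and Rik symbols. In some comparisons Shmt2, Aldh18a1, Asns, Slc1a2, Slc7a14, Sesn2, Flcn, Txnip and Myc are given outside this rule, after their values were seen. Marker lists of T cells, endothelial cells and neurons summed to at most 3.26, 21.7 and 11.8 CPM per library, and that of fibroblasts and pericytes, nearly all Dcn, to 655 to 1488 CPM. The stem-type list, mostly Vim, Cd44 and Itga6, summed to 2052 to 2821 CPM. Reads were not analysed here.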

Additional observations from a re-analysis of the deposited data

How the results depend on the processing

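Of 100 pairs of a member and a comparison, 69 were called. Of these, 65 stayed called under every alternative run, 4 were lost under at least 1 and none changed sign. Of the 31 pairs not called, 7 were called under at least 1 alternative and 9 changed sign, all without a call. With upper-quartile factors the D-gel@GSNP minus L-gel@GSNP differences of Slc3a2 and Slc1a5 turned to -0.05 and -0.06 on the log2 scale. The D-gel@NP minus PBS difference of Slc7a3 became -0.01 with the replicate block, 0.00 on log2(FPKM + 1), -0.14 without PBS replicate 1 and -0.38 without D-gel@NP replicate 2 (range on leaving out single libraries -0.38 to 0.23). That of Slc38a2 became -0.03 without PBS replicate 3 and -0.01 without D-gel@NP replicate 3 (range -0.03 to 0.04). The D-gel@GSNP minus non-SP difference of Slc38a1 became 0.00 on log2(FPKM + 1) and without D-gel@GSNP replicate 1 (range 0.00 to 0.08), and that of Slc43a1 became -0.14 without non-SP replicate 3 and -0.28 without D-gel@GSNP replicate 2 (range -0.28 to 0.45). The L-gel@GSNP minus PBS difference of Slc43a1 became 0.09 without PBS replicate 1 and 0.06 without L-gel@GSNP replicate 3 (range -0.93 to 0.09). Without non-SP replicate 2 the L-gel@GSNP minus non-SP difference of Slc1a5 was 0.00, and without D-gel@NP replicate 2 the L-gel@GSNP minus D-gel@NP difference of Slc7a3 was 0.07 (range -0.53 to 0.07). The causes were not tested.

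Counts of called members were the same under every alternative run in D-gel@GSNP minus PBS and D-gel@NP minus PBS, and moved in the other 8 comparisons. Slc7a1 was lost in 6 alternatives in PBS minus non-SP, Slc1a4 in 2 in L-gel@GSNP minus PBS and Slc1a5 in 3 in L-gel@GSNP minus D-gel@NP. In L-gel@GSNP minus non-SP, upper-quartile factors gave 8 members higher, against 6, adding Slc3a2 and Slc1a5. With upper-quartile factors 0 members were lower in D-gel@NP minus non-SP, against 1, and leaving out single libraries gave 0 to 1. For D-gel@GSNP minus non-SP, 1 member was higher with DESeq2 and in the fit of 6 libraries, against 0, and leaving out single libraries gave 0 to 1. For D-gel@GSNP minus D-gel@NP, 2 were higher with the replicate block, against 1, and leaving out single libraries gave 1 to 2, as it did for D-gel@GSNP minus L-gel@GSNP. Same-numbered libraries of different groups shared little of their deviation from the group means (r from -0.06 to 0.12 over genes). A pairing that touched few genes could go unseen in such an r, and the labels do not say whether the numbers pair the samples. The block called Slc43a1 in D-gel@GSNP minus D-gel@NP (log2 difference 1.56, adjusted p = 0.0491) and changed no other member's call.

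Over all genes, D-gel@GSNP minus non-SP had 18 higher and 55 lower. It had 72 and 167 without the filter, 44 and 151 with DESeq2, 69 and 213 in the fit of 6 libraries, 11 and 23 with the replicate block, 4 and 21 on log2(FPKM + 1), and 83 lower with upper-quartile factors. Leaving out single libraries of D-gel@GSNP or non-SP gave 3 to 21 higher and 3 to 119 lower. The 21 and 119 came from leaving out D-gel@GSNP replicate 3, and each other omission in these groups left at most 5 higher and 7 lower. Without the shallowest library, D-gel@NP 1, the counts were 18 and 53. L-gel@GSNP minus D-gel@NP had 1298 lower in the fit of 6 libraries, against 1948. Upper-quartile factors moved the median of all genes by -0.15, -0.12 and 0.12 in D-gel@GSNP minus L-gel@GSNP, D-gel@GSNP minus D-gel@NP and L-gel@GSNP minus non-SP. Higher and lower calls then were 4180 and 6778 against 5339 and 5475 in the first, 3961 and 6303 against 5031 and 5183 in the second, 2974 and 2221 against 2479 and 2848 in D-gel@NP minus PBS, 4560 and 3421 against 3761 and 4218 in L-gel@GSNP minus PBS, 6472 and 4106 against 5361 and 5107 in L-gel@GSNP minus non-SP, and 1720 and 1645 against 1457 and 1948 in L-gel@GSNP minus D-gel@NP. Depth limits Slc43a1, with 2 to 22 counts, and Slc7a3, with 5 to 120.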
